A study of Mus musculus with 6 samples.

Results

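The genes described here encode JAK kinases and STAT transcription factors, 9 genes in all of 12393 genes tested: the kinases Jak1, Jak2 and Tyk2, and the factors Stat2, Stat3, Stat4, Stat5a, Stat5b and Stat6. They were listed by name, with earlier results of these data known. They are measured by 18 probe sets, each annotated with a single gene symbol, and each gene is represented by the brightest of its probe sets, by the mean of all 6 arrays. The samples were mammary tumors of mice, 3 given vehicle and 3 given a combination of VX680, miltefosine and WP1066, each for 21 days, with 1 Affymetrix array per sample. Replicates are numbered in the order of listing, and the numbers pair no samples. VX680 inhibits Aurora kinases, miltefosine is an alkylphosphocholine, and WP1066 inhibits JAK2 and STAT3, so that the protein products of Jak2 and Stat3 are known drug targets. The labels give no strain, transgene, age, dose or schedule, nor whether each sample of a group was from an animal of its own. The p-values therefore cover the spread among these samples alone, part or all of which may be technical.

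JAK kinases sit on the inner side of cytokine and hormone receptors. When a ligand joins the receptor chains, the kinases phosphorylate the receptor and then the STAT proteins that dock on it, and paired STATs enter the nucleus and bind DNA. In the mammary gland STAT5 is known for driving milk protein genes in pregnancy and lactation, STAT3 for involution after weaning, and STAT6 for a part in luminal development. The arrays measured transcripts. Phosphorylation, the step that WP1066 acts on, was not analysed here.

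No difference between drug-treated and vehicle tumors beyond the spread between samples was detected for any of the 9 genes. With limma and Benjamini-Hochberg adjustment, 0 of 9 passed an adjusted p of 0.05, against 0% of the 12393 genes tested, and 0 of 9 had an unadjusted p under 0.05, against 10.3% of genes tested. Means were higher in drug-treated tumors for 5 genes and lower for 4, while 47.9% of all genes had a higher and 52.1% a lower mean. The largest difference in either direction was 0.21 on the log2 scale for Stat5b, a ratio of 1.16, and the most negative was -0.19 for Stat2. Every 95% interval included 0. Across the 9 genes the lowest bound was -0.49, for Stat2, and the highest 0.45, for Stat5b. With 3 arrays in each group, the smallest two-sided p of an exact permutation test is 0.1.

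**Figure D1:**
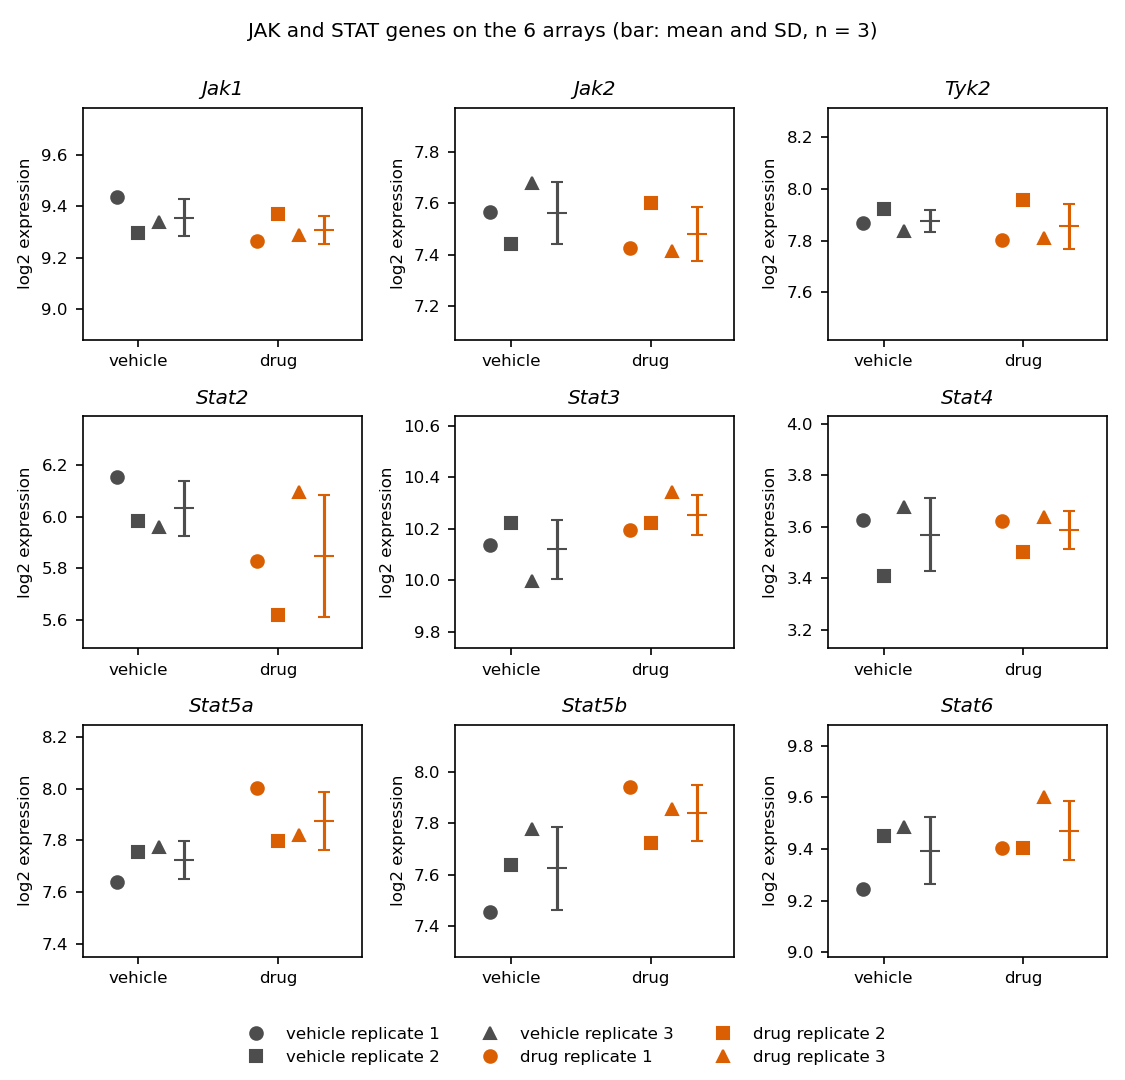
Log2 expression (vertical axis, the same span of 0.9 in each panel) of the 9 genes on each of the 6 arrays, vehicle in grey and drug in orange, with the mean and SD of each group (n = 3). The groups overlap in every gene but Stat5a, where the lowest drug value, 7.80, lies above the highest vehicle value, 7.77.

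Array medians lay between 6.70 and 6.73, and over all probe sets, which are not independent of each other, any pair of arrays had a Pearson r of 0.991 to 0.997. All 11 measured epithelial markers had a mean of at least 5, and their mean level was 10.39 to 10.64 on the vehicle arrays and 10.45 to 10.71 on the drug arrays. Skeletal muscle markers were unbalanced between groups: all 16 averaged lower under the drug, and the middle value of their differences was -1.88. Groups overlapped in each, and 0 of the 16 had an unadjusted p under 0.05 with limma. The mean level of these markers ranged from 6.54 to 10.22 on the vehicle arrays and from 4.73 to 9.26 on the drug arrays. It was highest on the arrays of vehicle replicate 3 and drug replicate 1. It was lowest on those of drug replicates 2 and 3, at 5.29 and 4.73. Mast cell markers, 7 of 9 with higher means and a median of 0.61, had mean levels of 4.69 to 5.21 on the vehicle arrays and 5.31 to 5.67 on the drug arrays, and 5 were higher at an unadjusted p under 0.05 with limma, against 5.37% of genes tested. Adipocyte, endothelial and fibroblast markers had medians of 0.065, 0.015 and 0.15, with mean levels that overlapped between groups.

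Among the kinases, Jak2 transduces signals of growth hormone, prolactin, erythropoietin and many cytokines. Its level was 7.57, 7.44 and 7.68 in vehicle replicates 1 to 3 and 7.43, 7.60 and 7.42 in drug replicates 1 to 3. The drug arrays of replicates 1 and 3 lay below all vehicle arrays and replicate 2 lay within the vehicle range. The difference was -0.081 ± 0.085 (SE, n = 3 per group), with a 95% interval of -0.29 to 0.12 and a limma adjusted p of 0.785. Without both muscle-rich arrays the difference was 0.0056, in a fit where the muscle markers still differed, with a median of -2.50. With the skeletal muscle score as a covariate the Jak2 difference was -0.056, and with the mean of its probe sets it was -0.14. A dimmer probe set of Jak2 read 5.71, 5.52 and 5.56 on the vehicle arrays and 5.21, 5.47 and 5.49 on the drug arrays, a difference of -0.21 ± 0.096 (SE) with a limma adjusted p of 0.560 over 20380 probe sets. All drug values of that probe set lay below all vehicle values, as for 8.91% of probe sets. Of the 18 probe sets of the family, 2 had all drug values below vehicle and 1 all above, against 8.91% and 7.24% of probe sets and 16.2% in either direction.

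Jak1 serves the receptors of interferons and of the IL6 family. It read 9.44, 9.30 and 9.34 on the vehicle arrays and 9.27, 9.37 and 9.29 on the drug arrays, a difference of -0.047 ± 0.061 (SE, n = 3 per group) with overlapping groups. Of its 3 probe sets 2 had lower means and 1 a higher mean, at 0.097 ± 0.10 (SE). Tyk2, which pairs with Jak1 or Jak2 at interferon and IL12 receptors, read 7.87, 7.92 and 7.84 on the vehicle arrays and 7.80, 7.96 and 7.81 on the drug arrays. Both its highest and its lowest value came from drug-treated tumors, and the difference was -0.021 ± 0.064 (SE). The intervals of Jak1 and Tyk2, -0.19 to 0.10 and -0.17 to 0.13, were the narrowest of the family.

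Stat3 responds to IL6-type cytokines. Its brightest probe set read 10.14, 10.22 and 9.998 on the vehicle arrays and 10.19, 10.22 and 10.34 on the drug arrays. The lowest value was in vehicle replicate 3 and the highest in drug replicate 3, and vehicle replicate 2 lay above 2 of the 3 drug values. The mean was higher by 0.13 ± 0.078 (SE, n = 3 per group), with an interval of -0.054 to 0.32 and a limma adjusted p of 0.607. All 3 probe sets of Stat3 had higher means in drug-treated tumors, at 0.13, 0.086 and 0.064, each with overlapping groups. When the muscle score entered as a covariate the difference was 0.064, and without vehicle replicate 2 it was 0.19.

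Stat5a and Stat5b encode closely related factors that carry prolactin and growth hormone signals. Stat5a read 7.64, 7.76 and 7.77 on the vehicle arrays and 8.003, 7.80 and 7.82 on the drug arrays. It was the only gene of the 9 whose groups did not overlap, whereas 17.1% of all genes tested did not overlap in either direction and 7.73% had drug above vehicle. The difference was 0.15 ± 0.076 (SE, n = 3 per group), with an interval of -0.032 to 0.33 and a limma adjusted p of 0.552. Stat5b read 7.46, 7.64 and 7.78 on the vehicle arrays and 7.94, 7.72 and 7.85 on the drug arrays, where drug replicate 2 lay below vehicle replicate 3. Its difference was 0.21 ± 0.10 (SE, n = 3 per group), with an interval of -0.026 to 0.45 and a limma adjusted p of 0.524. Both genes were lowest on the array of vehicle replicate 1 and highest on that of drug replicate 1. Stat5a was 0.087 without drug replicate 1, Stat5b was 0.13 without vehicle replicate 1, and the mean of their probe sets gave 0.067 and 0.10.

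The second probe sets of these genes had smaller differences between groups than the brighter ones. The dimmer Stat5a probe set differed by -0.017 ± 0.086 and the dimmer Stat5b probe set by -0.0045 ± 0.12 (SE, n = 3 per group), both with overlapping groups. Within each array the bright Stat5a probe set exceeded the dim one by 2.48 ± 0.050 on the vehicle arrays and 2.65 ± 0.047 on the drug arrays (SD, n = 3). For Stat5b the excess was 1.61 ± 0.041 and 1.83 ± 0.14 (SD, n = 3). In both genes all 3 drug values of this excess lay above all vehicle values, with an exact two-sided permutation p of 0.1, the smallest that the design allows, and a Benjamini-Hochberg adjusted p of 0.45 over 9 such pairs of probe sets in the family. The other 7 pairs overlapped. Since the transcripts of Stat5a and Stat5b are similar, signal from 1 gene on the probes of the other is possible and was not tested.

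**Figure D2:**
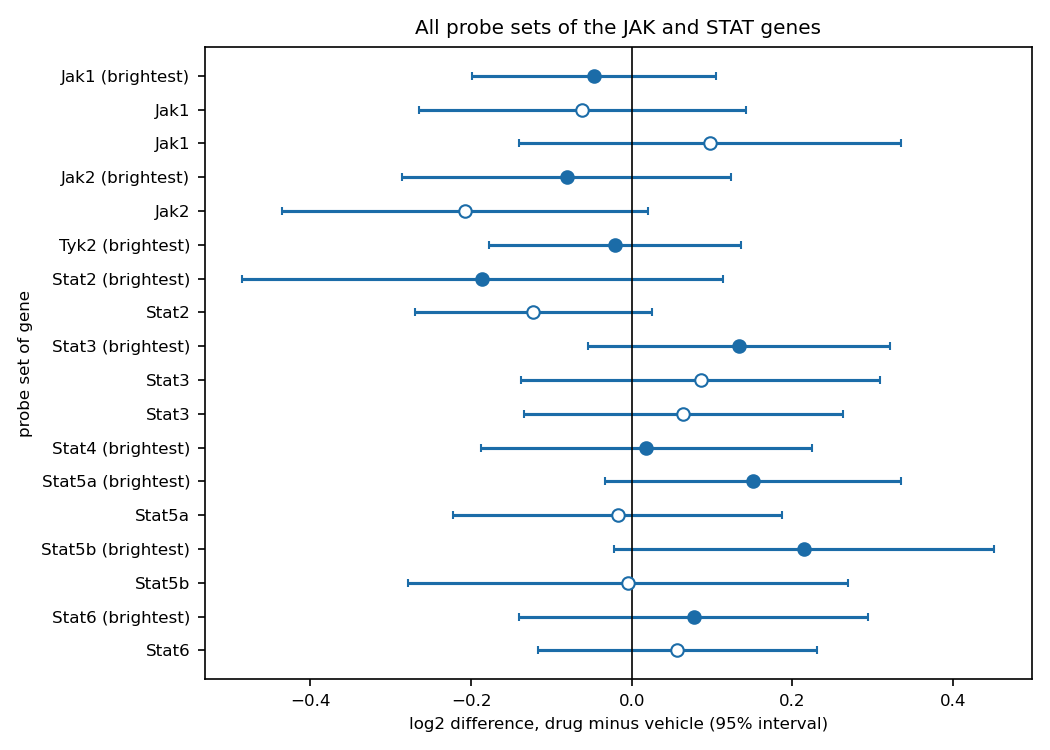
Log2 difference, drug minus vehicle, with its 95% interval (horizontal axis) for all 18 probe sets of the 9 genes, filled for the brightest probe set of each gene and open for the others. All intervals include 0, and 9 probe sets have higher and 9 lower means.

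Of the 18 probe sets, 0 had a limma adjusted p under 0.05 or an unadjusted p under 0.05, against 0% and 9.42% of the 20380 probe sets with a single symbol. Of the 7 genes with more than 1 probe set, 4 had the same sign in all of them, namely Jak2, Stat2, Stat3 and Stat6, and Jak1, Stat5a and Stat5b did not.

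The 300 bases around the annotated starts of Stat5a and Stat5b are shown because these genes had their extremes on the same arrays. RefSeq lists 2 starts for each, and of the 4 pairs of windows the pair with the longest shared run is shown, chosen after the runs were seen. The other pairs share runs of 8 to 11 bases. Bases are from RefSeq on GRCm38.p6, each from 250 bases before to 50 after the start, and the capitals mark the longest run that the windows have in common, 16 bases. The windows are chr11:100860234-100860533 on the plus strand for Stat5a and chr11:100822521-100822820 on the minus strand for Stat5b.
Stat5a: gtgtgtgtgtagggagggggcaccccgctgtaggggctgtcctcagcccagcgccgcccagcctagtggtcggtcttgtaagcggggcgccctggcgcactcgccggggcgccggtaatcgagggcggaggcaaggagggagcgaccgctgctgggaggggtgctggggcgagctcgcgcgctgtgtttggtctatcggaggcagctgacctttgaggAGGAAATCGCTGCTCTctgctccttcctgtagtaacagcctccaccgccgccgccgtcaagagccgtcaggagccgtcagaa
Stat5b: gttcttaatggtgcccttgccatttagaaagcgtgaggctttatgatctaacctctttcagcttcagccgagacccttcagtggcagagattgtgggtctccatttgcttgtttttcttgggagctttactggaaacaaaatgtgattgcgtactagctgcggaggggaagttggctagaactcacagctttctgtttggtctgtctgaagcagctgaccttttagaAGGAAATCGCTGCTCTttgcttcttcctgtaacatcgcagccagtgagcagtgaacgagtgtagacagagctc
The best local alignment of the pair spanned 104 columns, of which 79.8% were identical. RefSeq gave 12 such windows for the 9 genes. The STAT palindrome TTCNNNGAA was found in 0 of the 12, against 8.30% of 32851 promoter windows of this length. The pattern TTCNNNNGAA, which STAT6 binds, was found in 1 of 12 against 6.95%. Both patterns read the same on either strand, and these letters may lie outside the windows searched.

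Stat6 carries IL4 and IL13 signals. It read 9.25, 9.45 and 9.48 on the vehicle arrays and 9.40, 9.41 and 9.60 on the drug arrays, a difference of 0.077 ± 0.091 (SE, n = 3 per group), with the lowest value in vehicle replicate 1 and the highest in drug replicate 3. Its other probe set differed by 0.057 ± 0.073 (SE). Stat4 carries IL12 signals in T and NK cells. It read 3.62, 3.41 and 3.68 on the vehicle arrays and 3.62, 3.503 and 3.64 on the drug arrays, a difference of 0.018 ± 0.086 (SE, n = 3 per group), on 1 probe set in the low part of the scale, where values may lie close to background. It was the only gene of the 9 with a mean below 5. Of 15 measured T and NK cell markers 7 had means below 4, 11 had lower means in drug-treated tumors, and the mean level of the list was 4.50 to 4.60 on the vehicle arrays and 4.38 to 4.47 on the drug arrays, with no overlap. Of the 15, 4 were lower at an unadjusted p under 0.05 with limma, against 4.91% of genes tested. In whole tumors, fewer cells of a type and less RNA per cell cannot be told apart.

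Stat2 joins Irf9 in the complex that type I interferons activate. It had the widest spread of the 9 genes among drug-treated tumors. It read 6.15, 5.98 and 5.96 on the vehicle arrays and 5.83, 5.62 and 6.09 on the drug arrays, so that drug replicates 1 and 2 lay below every vehicle array and drug replicate 3 lay inside the vehicle range. The difference was -0.19 ± 0.13 (SE, n = 3 per group), with an interval of -0.49 to 0.12 and a limma adjusted p of 0.660. Without drug replicate 3 the difference was -0.31 (limma unadjusted p of 0.0234, a level that 9.07% of all genes passed in that fit, and adjusted p of 0.482), and without drug replicate 2 it was nearer to 0, at -0.072. The second Stat2 probe set read 4.64, 4.66 and 4.78 on the vehicle arrays and 4.53, 4.60 and 4.58 on the drug arrays. The difference was -0.12 ± 0.062 (SE), with a limma adjusted p of 0.588 over 20380 probe sets. All drug values lay below all vehicle values, as for 8.91% of probe sets. On this dimmer probe set vehicle replicate 3 was the highest array and drug replicate 3 lay below every vehicle array, unlike on the brighter one.

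Known target genes of the STAT2 complex were described as a list. All 15 measured of 17 listed targets had lower means in drug-treated tumors, with a median difference of -0.36 against -0.0054 over all genes tested. With limma 0 of 15 passed the adjusted threshold and 1 had an unadjusted p under 0.05, while 4.91% of all genes were lower at that level. Ifit3, an interferon-induced antiviral protein, read 7.71, 7.52 and 7.25 on the vehicle arrays and 6.29, 6.69 and 7.38 on the drug arrays, a difference of -0.71 ± 0.28 (SE, n = 3 per group) with a limma adjusted p of 0.474. Mx1, an antiviral GTPase, differed by -0.74 ± 0.32 and Oasl2, of the oligoadenylate synthetase family, by -0.60 ± 0.27 (SE). Groups overlapped in all 15, since drug replicate 3 reached the vehicle range in each. Relative to the mean of the 6 arrays, the list's median was 0.34, 0.32 and 0.035 on the vehicle arrays and -0.56, -0.45 and 0.25 on the drug arrays. All 15 had lower means with any 1 array left out and without both muscle-rich arrays. The latter fit does not remove the difference in muscle markers, whose median was -2.50 in it. With 1 array left out the median ranged from -0.25, without vehicle replicate 2, to -0.61, without drug replicate 3, and it was -0.63 with the muscle score as a covariate. Macrophage markers, of which 7 of 10 had lower means, had mean levels of 9.84, 9.37 and 9.69 on the vehicle arrays and 9.55, 9.53 and 9.31 on the drug arrays. B and plasma cell markers, 7 of 8 with lower means, had a median of -0.36. With 1 array left out that median ranged from -0.055, without vehicle replicate 3, to -0.54, without vehicle replicate 1. Their mean levels were 4.73, 4.76 and 5.37 on the vehicle arrays and 4.34, 4.48 and 4.39 on the drug arrays, with no overlap. Of these 8 markers, 2 were lower at an unadjusted p under 0.05 with limma, against 4.91% of genes tested. The part of macrophages, B cells and plasma cells in the result was not tested.

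The promoter windows of Stat2 and of Ifit3 are shown because both hold the core of the interferon-stimulated response element, GAAANNGAAA, here on the opposite strand as TTTCNNTTTC. Capitals mark these matches and, in Stat2, 1 match to TTCNNNNGAA. The windows are chr10:128270248-128270547 for Stat2 and chr19:34583279-34583578 for Ifit3, both on the plus strand of GRCm38.p6.
Stat2: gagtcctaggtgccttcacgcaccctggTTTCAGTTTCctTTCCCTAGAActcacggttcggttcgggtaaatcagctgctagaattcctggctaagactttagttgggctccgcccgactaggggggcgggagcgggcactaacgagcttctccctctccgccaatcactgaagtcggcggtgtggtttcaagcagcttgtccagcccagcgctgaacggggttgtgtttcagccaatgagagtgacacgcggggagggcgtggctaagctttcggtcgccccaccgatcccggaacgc
Ifit3: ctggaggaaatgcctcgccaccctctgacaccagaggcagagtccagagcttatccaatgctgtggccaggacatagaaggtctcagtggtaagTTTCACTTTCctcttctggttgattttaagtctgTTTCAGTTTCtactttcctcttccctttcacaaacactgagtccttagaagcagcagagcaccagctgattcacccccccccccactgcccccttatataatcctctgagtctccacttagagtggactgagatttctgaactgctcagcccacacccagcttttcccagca
In Stat2 the element began 222 bases before the annotated start, and it did not overlap the TTCNNNNGAA match. Ifit3 held 2 matches, the first 156 bases before the start. On both strands, 3.44% of all 32851 windows held this core, as did 6 of 14 windows of the STAT2 target genes and 2 of the 12 windows of the JAK and STAT genes, the other 1 at a second start of Stat4. A match describes the letters and does not show binding.

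**Figure D3:**
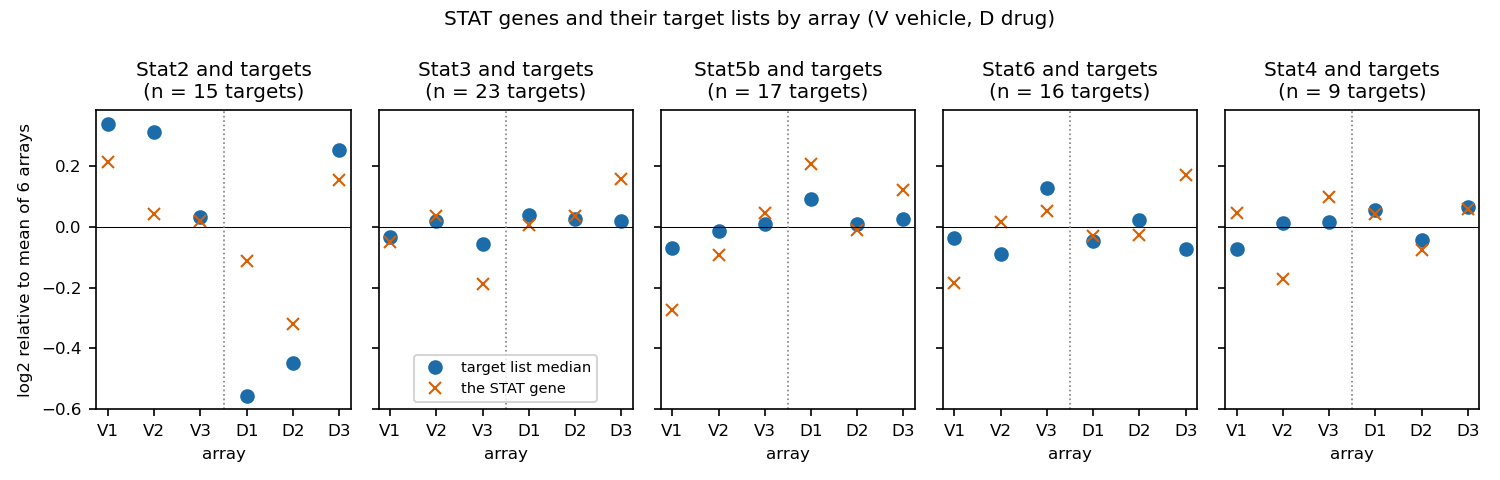
Level of Stat2, Stat3, Stat5b, Stat6 and Stat4 (cross) and median of the listed target genes (circle) on each array, as log2 relative to the mean of the 6 arrays (vertical axis). Vehicle arrays V1 to V3 are left of the dotted line and drug arrays D1 to D3 right of it. STAT5 targets are set beside Stat5b, and Stat5a is not drawn. STAT2 targets span -0.56 to 0.34, and drug replicate 3, at 0.25, lies above the other 2 drug arrays.

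Target genes of the other STATs had medians close to 0 as lists, while single genes differed in both directions. Differences ran from -0.65 to 0.92 among STAT6 targets and from -0.26 to 1.11 among STAT5 targets. The median absolute difference was 0.16 for STAT6, 0.14 for STAT5, 0.10 for STAT3 and 0.080 for STAT4 targets, against 0.074 over all genes tested. Of 23 listed STAT3 targets, all measured, 15 had higher means (median 0.062), and 3 had a limma unadjusted p under 0.05, all higher, against 5.37% of genes tested. These were Lrg1, a secreted glycoprotein, at 0.33 ± 0.11, the cyclin gene Ccnd1 at 0.31 ± 0.12 and Lcn2, a lipocalin of acute phase responses, at 0.16 ± 0.063 (SE, n = 3 per group), with limma adjusted p of 0.430, 0.475 and 0.475. Lrg1 read 11.13, 11.35 and 11.01 on the vehicle arrays and 11.45, 11.37 and 11.65 on the drug arrays, so the groups did not overlap. Of the 23 targets, 4 had all drug values above vehicle and 0 below, against 7.73% and 9.37% of genes tested. Socs3, the feedback inhibitor that STAT3 induces, differed by -0.11 ± 0.078 (SE), and was named after its value was seen.

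Of 17 measured STAT5 targets 9 had higher means (median 0.0038), and 4 had an unadjusted p under 0.05 with limma, all higher, against 5.37% of genes tested. Lao1, an amino acid oxidase of milk, read 7.01, 6.57 and 6.17 on the vehicle arrays and 8.22, 7.67 and 7.18 on the drug arrays, a difference of 1.11 ± 0.31 (SE, n = 3 per group) with a limma adjusted p of 0.378. Wap, whey acidic protein, differed by 0.44 ± 0.18 (SE), and Ccnd1 stands on this list too. The fourth was Elf5, a regulator of alveolar cells, at 0.14 ± 0.058 (SE), named after its value was seen. Csn2, beta casein, differed by -0.0058 ± 0.054 (SE), and was also named after its value was seen. Secretory alveolar markers, 10 of 12 with higher means, had mean levels of 10.39, 10.77 and 10.72 on the vehicle arrays and 11.02, 10.63 and 11.02 on the drug arrays, overlapping between groups. Of these 12 markers, 4 were higher and 0 lower at an unadjusted p under 0.05 with limma, against 5.37% and 4.91% of genes tested. All drug values lay above vehicle for 5 of the 12 markers and for 5 of the 17 STAT5 targets, against 7.73% of genes tested. They lay below for 0 in both lists, against 9.37%. The alveolar markers hold some of the same genes as the STAT5 target list. Their part in the values of Stat5a, Stat5b and the STAT5 targets was not tested.

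Of 16 STAT6 targets 7 had higher means, with a median of -0.027. Alox15, a lipoxygenase of alternatively activated macrophages, differed by 0.36 ± 0.083 and Socs1 by -0.20 ± 0.050 (SE, n = 3 per group), with limma adjusted p of 0.338 and 0.364. Pdcd1lg2, a ligand of PD-1, differed by -0.20 ± 0.095 (SE) at levels below 4. Of 9 measured STAT4 targets 6 had higher means (median 0.063), and 0 had an unadjusted p under 0.05 by limma. Among them Furin, a proprotein convertase, differed by 0.095 ± 0.055, Hlx by -0.16 ± 0.096 and Gadd45g by 0.13 ± 0.080 (SE, n = 3 per group).

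Upstream of the kinases, 24 of 29 listed cytokine and hormone ligands were measured, 12 of them with means below 4, and 17 had lower means with a median of -0.042. Tslp, a cytokine made by epithelial cells, read 6.01, 5.95 and 5.88 on the vehicle arrays and 4.90, 5.26 and 5.45 on the drug arrays. All drug values lay below all vehicle values, and the difference was -0.75 ± 0.14 (SE, n = 3 per group) with a limma adjusted p of 0.273. Il15, which sustains NK and memory T cells, read 4.93, 4.72 and 4.81 on the vehicle arrays and 5.33, 5.11 and 5.22 on the drug arrays, and differed by 0.40 ± 0.083 (SE) with a limma adjusted p of 0.290. Gh, growth hormone, differed by 0.25 ± 0.075 (SE). Of these 24 ligands, 2 were higher and 2 lower at an unadjusted p under 0.05 with limma, against 5.37% and 4.91% of genes tested, and 9 had a mean of at least 5. All drug values lay above vehicle for 2 ligands and below for 3, against 7.73% and 9.37% of genes tested.

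Of 38 listed receptor chains 31 were measured, 19 with higher means and a median of 0.022. Il15ra, the receptor chain that presents IL15, read 8.11, 8.19 and 8.19 on the vehicle arrays and 8.52, 8.34 and 8.39 on the drug arrays. Both it and its ligand, each named for a small p in its list, had drug values above all vehicle values, as had 7.73% of genes tested. Of the 31 chains, 1 had all drug values above vehicle and 0 below, against 7.73% and 9.37% of genes tested. Its difference was 0.26 ± 0.067 (SE, n = 3 per group) with a limma adjusted p of 0.369. Il7r differed by 0.36 ± 0.11 and Cntfr by 0.46 ± 0.22 (SE), both with overlapping groups. Il15ra and Il7r were the 2 of 31 chains with an unadjusted p under 0.05 by limma, both higher, against 5.37% of genes tested, a share near the background.

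All 26 listed inhibitors and modifiers were measured, 17 with lower means and a median of -0.033. Some stand on the target lists too, so the lists are not separate observations. These are Irf9 and Usp18 for STAT2, Socs3 for STAT3, Socs2 and Cish for STAT5, and Socs1 for STAT6. Socs1, which binds and inhibits JAKs, read 5.05, 5.08 and 5.09 on the vehicle arrays and 4.91, 4.88 and 4.84 on the drug arrays, a difference of -0.20 ± 0.050 (SE, n = 3 per group) with groups apart. Ptprc, the leukocyte phosphatase CD45 and a marker of all white blood cells, differed by -0.42 ± 0.12 (SE) with a limma adjusted p of 0.382, also with all drug values below all vehicle values. Sh2b2, an adaptor of receptor kinases, differed by 0.13 ± 0.063 (SE). Of the 26, 0 were higher and 2 lower at an unadjusted p under 0.05 with limma, against 5.37% and 4.91% of genes tested, and 0 genes of any of these lists passed the adjusted threshold. All drug values lay below vehicle for 4 of the 26 and above for 1, against 9.37% and 7.73% of genes tested.

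**Figure D4:**
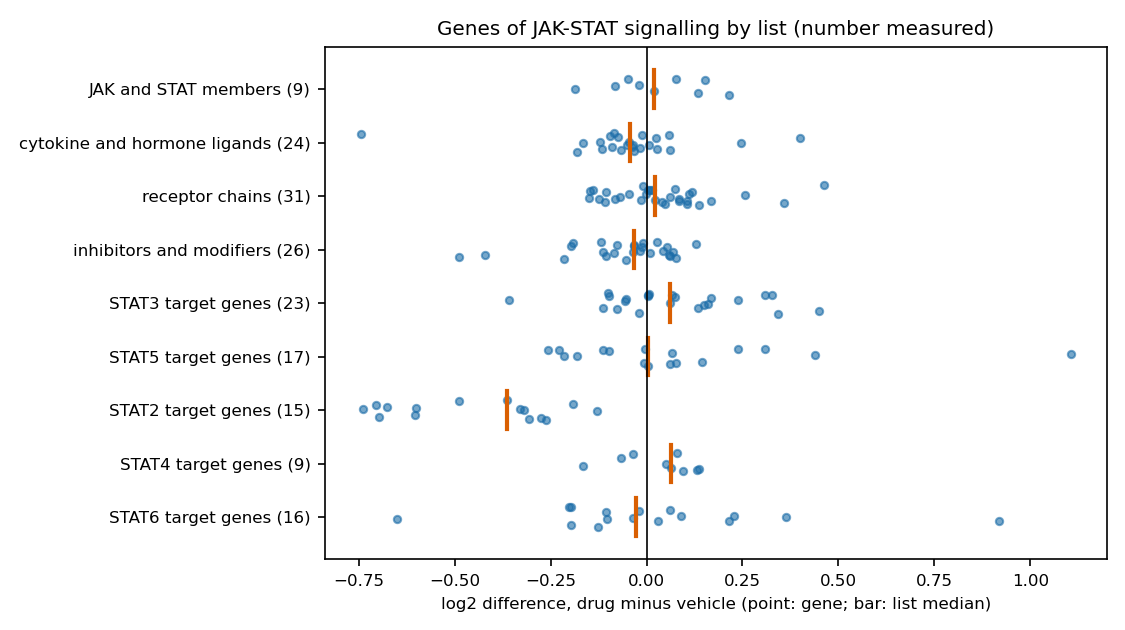
Log2 difference, drug minus vehicle (horizontal axis), of each measured gene (point) of the JAK and STAT family and of the pathway and target lists, with the list median (bar) and the number measured in brackets. The STAT2 targets lie wholly below 0 with a median of -0.36, and the medians of the other lists lie between -0.042 and 0.063.

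Genes whose levels followed those of the drug targets most closely over the 6 arrays were looked for among 9073 genes with a mean of at least 5. For Jak2 they were Ap2m1, a clathrin adaptor subunit, Minpp1, an inositol phosphate phosphatase, and Lysmd2, with Pearson r of 0.975, 0.972 and 0.968 and Spearman rho of 0.943 each. For Stat3 they were Ric8a, a chaperone of G protein subunits, Arid5b, a DNA-binding protein, and Gch1, which makes tetrahydrobiopterin, with Pearson r of 0.989, 0.987 and 0.985 and Spearman rho of 1, 0.943 and 1. Over 6 arrays 46 genes had an r above 0.9 with Jak2 and 131 with Stat3, so such values are a description of these arrays. Ric8a read 8.33, 8.44 and 8.23 on the vehicle arrays and 8.38, 8.42 and 8.54 on the drug arrays, lowest in vehicle replicate 3 and highest in drug replicate 3 like Stat3.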

How the data were processed

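The table that the authors deposited holds log2 expression of 22690 probe sets on 6 arrays. Affymetrix Expression Console is the tool given by the submitters' processing notes. How it summarised and normalized the probes is not given in the sources used here. That the scale is log2 was taken from the range, 1.88 to 14.14. Nothing was normalized further, and a shift common to most genes could not be seen if arrays had been equalised.

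Gene symbols came from GEO's annotation of the platform. Of the probe sets 20380 had 1 symbol, 691 several, 1555 none, and 64 were controls. Single-symbol probe sets were reduced to the brightest per gene, giving 12393 genes, and compared with limma 3.58.1 in R 4.3.3 (lmFit, eBayes, two-sided, no filter, adjusted by Benjamini-Hochberg across these genes, with a threshold of 0.05). A second fit took all 20380 probe sets. Differences are drug minus vehicle. The procedure was run on simulated data with differences larger than any JAK or STAT gene had here. That run does not show whether differences as small as theirs would be found. The members and lists were chosen with earlier results of these data known. Lists are described by counts and medians, without a set test. Text names the members, the 3 genes per list with the smallest unadjusted p, and the 3 genes most like Jak2 and Stat3. Other settings were the mean of probe sets, a level filter of 5, quantile or median normalization, trended and robust eBayes, array weights, a skeletal muscle score as covariate, and arrays left out. The comparison between probe sets of a gene was added after the data were seen. Promoters were read from RefSeq windows, and aligned with Biopython 1.88 (match 1, mismatch -1, gap opening -2, gap extension -1). Figures were drawn with matplotlib 3.10.9.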

Additional observations from a re-analysis of the deposited data

How the results depend on the processing

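No paired analysis was possible because the labels number no replicates: the numbers used here follow the order of listing, only name a sample, and pair none. In 14 other fits 0 of the JAK and STAT genes tested passed an adjusted p of 0.05 with limma, 9 genes in each fit but that with the level filter, which tested 8 and left out Stat4. Over all genes, the calls were 0 to 3 with 1 array left out, the 3 without drug replicate 2, and 1275 at an unadjusted p under 0.05. Jak1, Stat2, Stat3, Stat5a, Stat5b and Stat6 had 1 sign throughout these fits, but sizes moved: without vehicle replicate 1, Jak1 was -0.0080 and Stat6 0.0031, and with 1 array left out Stat5a ranged from 0.087 to 0.19 and Stat5b from 0.13 to 0.29. Jak2 was 0.0056 without both muscle-rich arrays and below 0 in the other fits. With 1 array left out, Tyk2 ranged from -0.071 to 0.0062 and Stat4 from -0.063 to 0.072, through 0 in both. At an unadjusted p under 0.05, Stat5a (0.21) and Stat5b (0.28) passed with the muscle score in the fit, as did 10.9% of all genes, Stat5b without vehicle replicate 3 (0.29, against 10.1%) and Stat2 without drug replicate 3 (-0.31, against 9.07%). The mean of probe sets gave 0.067 for Stat5a and 0.10 for Stat5b.

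The median of STAT2 targets was -0.61 to -0.25 with 1 array left out and -0.63 with the muscle score. Each list median was compared with the spread of its own list between arrays within groups. For STAT2 targets that spread was wide, with drug arrays from -0.56 to 0.25. The medians of STAT2 and STAT4 targets moved less than their own spread in every fit, and those of the other lists moved more than theirs in some fits. With 1 array left out the ligand median ranged from -0.081 to -0.021, receptor chains from 0.013 to 0.063, inhibitors from -0.064 to -0.022, STAT3 targets from 0.018 to 0.10, STAT5 targets from -0.014 to 0.071 and STAT6 targets from -0.14 to 0.052. The ligand median was 0.026 with the level filter and -0.057 with quantile normalization. The inhibitor median was -0.070 with the mean of probe sets and -0.053 with the muscle score, which gave 0.072 for STAT5 targets. Without both muscle-rich arrays receptor chains had 0.069 and STAT6 targets 0.089. The causes were not tested. Precision is limited by having 3 arrays in each group.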
